A study of Mus musculus with 59 samples.

Results

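Granulocyte–monocyte progenitors (GMPs) with no time point on their label were compared between mice that had lost Daxx and wild-type (WT) controls, using the 4 libraries that the labels place in this set out of 59 in the series: 2 from Daxx F/F animals, called Daxx-KO here, and 2 from Daxx +/+ animals. All 4 are C57BL/6 bone marrow cells sorted by flow cytometry, and both genotypes carry Cre +/-, so Cre itself does not separate the groups. The study used this library kit and a duplicate design for CD45.2+ cells recovered from irradiated CD45.1 recipients of Daxx+/+;Mx1Cre or DaxxF/F;Mx1Cre marrow, but the labels do not say that these 4 libraries came from such recipients. In that model the Mx1 promoter drives Cre throughout the blood system after injection of pI:pC, a double-stranded RNA that itself induces interferon, the floxed line is of the 6N substrain and the Cre line of 6J, and CD45.1 support cells are given with the graft. The question was which transcripts differ in a committed myeloid progenitor once Daxx is gone. The gene table holds 51812 genes, and the 12744 with a mean normalised count of 10 or more over the 4 libraries were tested. Nothing on the labels says whether the 2 libraries of a genotype came from separate mice, so the p values measure the spread between these libraries only, which may be technical.

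GMPs are the bone marrow cells from which neutrophils, monocytes and, in part, basophils, mast cells and eosinophils arise. As they mature they first make the proteins of primary granules, such as myeloperoxidase and elastase, and later those of secondary granules, while they stop dividing. Daxx is a chaperone that, with the remodeller Atrx, places the histone variant H3.3 in heterochromatin and over repeats, and it also binds transcription factors as a co-repressor. Pu.1, encoded by Spi1, and the C/EBP factors are the main transcription factors of these cells.

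Depth was uneven. The libraries held 4938629 and 7067939 gene reads in WT and 3388906 and 17307510 in Daxx-KO, so that 1 read was worth 1.30, 0.904, 2.03 and 0.408 normalised counts in turn. The genotypes were far apart compared with the replicates: across the tested genes the 2 WT libraries correlated at r = 0.979, the 2 Daxx-KO libraries at 0.968, and libraries of different genotype at 0.882 to 0.907. By limma on log2(normalised count + 1), 4209 genes were called at an adjusted p under 0.05, which is 33.0% of those tested, with 2110 higher and 2099 lower in Daxx-KO. This 33.0% is the share to set beside each count of called list members below. In 8562 genes (67.2%) the libraries of the genotypes did not overlap. No overlap was also a condition for naming the largest changes and the list members that are not defining ones. Where it is stated below for such genes, it adds no support. The fall in calls was large when a WT library was left out, to 2433 without WT replicate 1 and 2162 without WT replicate 2. Differences were large as well as many: 778 genes (6.10%) were called and over 2-fold higher and 948 (7.44%) over 2-fold lower, and 51 (0.400%) and 75 (0.589%) differed by over 16-fold, with 2.21% called and over 4-fold higher and 3.23% over 4-fold lower. The plot of all tested genes shows calls in both directions at every level of expression.

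**Figure D1:**
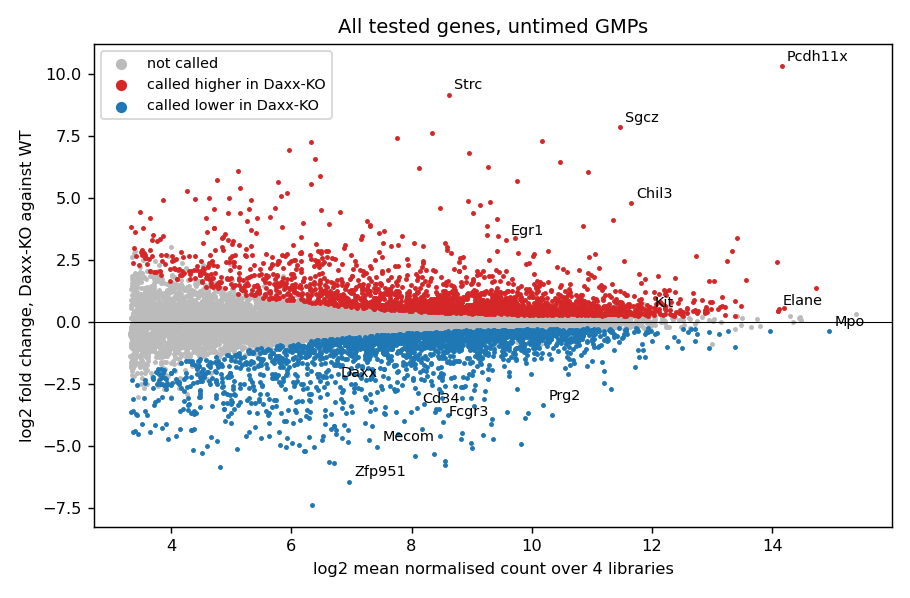
Log2 fold change of Daxx-KO against WT (y axis, log2 of normalised count + 1) for each of the 12744 tested genes against the log2 of its mean normalised count over the 4 libraries (x axis), with called genes in red (2110 higher) and blue (2099 lower) and others in grey. Pcdh11x and Strc lie above the other genes, and Mpo and Elane lie near 0 at the right.

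The deleted gene was lower in both Daxx-KO libraries. Daxx (chromosome 17, 33909414–33915590, plus strand; GRCm38) was at 215 and 143 in WT and 44.6 and 22.8 in Daxx-KO (log2 fold change -2.42, SE 0.36, adjusted p = 0.000984), so the labels held, and transcript remained in both libraries. The markers of the sort moved too. Kit, the receptor used to gate c-Kit+ cells, was at 3373 and 3439 in WT and 4580.1 and 4380.1 in Daxx-KO (log2 fold change 0.40), and Ptprc, which encodes CD45, at 2581 and 2591 in WT and 3287 and 3583 in Daxx-KO (0.41). Both differences were small, and Kit lost its call without WT replicate 1 (adjusted p = 0.0507) and Ptprc without WT replicate 2 (adjusted p = 0.0524). Cd34 was at 436 and 556 in WT and 75 and 24.9 in Daxx-KO (log2 fold change -3.47, SE 0.42, adjusted p = 0.000298), and Fcgr3, which encodes CD16, was at 654 and 712 in WT and 87.2 and 19.6 in Daxx-KO (log2 fold change -4.0, SE 0.52, adjusted p = 0.000489). Fcgr2b, which encodes CD32 and is seen by the same antibody, was at 619 and 551 in WT and 1251 and 1426 in Daxx-KO (log2 fold change 1.19, SE 0.11, adjusted p = 8.21e-05). Thus of the 3 genes behind the CD34 and CD16/32 gates 2 fell and 1 rose, with no overlap between the genotypes in any of them, and without Daxx-KO replicate 2 the fold changes of Cd34 and Fcgr3 were -2.70 and -2.95. The 2 Fc receptor genes are similar in sequence, and how reads shared between them were counted is not given in the sources used here. Of the lineage markers that the sort excluded, Itgam, which encodes CD11b, was the 1 of 10 above the minimum level, at 735 and 840.4 in WT and 2648 and 3589.6 in Daxx-KO (log2 fold change 1.97, SE 0.14, adjusted p = 2.47e-05). Cd3e and Ms4a1 were listed at 0 in all 4 libraries. At 3 weeks post induction (w.p.i.), in a separately normalised GMP table, Cd34 and Fcgr3 differed by 0.29 and 0.02 and neither was called. Only 13 of 13714 genes (0.0948%) were called there, so the lack of a call at 3 w.p.i. does not show that a gene was unchanged. Libraries of a genotype could differ widely in that table, as Ltf (lactoferrin) did, at 49430, 10615 and 38466 in WT and 4736, 73957 and 5124 in Daxx-KO.

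Genes that define GMPs were at high levels in both genotypes, with differences in both directions. Elane (neutrophil elastase) was at 14518 and 14803 in WT and 19563 and 20704 in Daxx-KO (log2 fold change 0.46, SE 0.08), Prtn3 (proteinase 3) at 7366 and 6990.3 in WT and 10861 and 9797 in Daxx-KO (0.52), Ctsg (cathepsin G) at 5768 and 5064 in WT and 6212 and 6155 in Daxx-KO (0.19, adjusted p = 0.135), and Cebpa, the factor that GMPs need in order to form, at 501 and 473 in WT and 487 and 471 in Daxx-KO (-0.02). Ctsg and Cebpa were not called. Mpo (myeloperoxidase) was lower, at 34972 and 35893 in WT and 28365 and 26730.4 in Daxx-KO (-0.36), a call not kept without Daxx-KO replicate 2 or without either WT library (adjusted p = 0.0697, 0.0652 and 0.089). While these genes stayed high, the transcripts of Cd34 and Fcgr3 were lower and that of Itgam was higher in Daxx-KO. Those of Fcgr2b, Kit and Ptprc were higher as well. The gates were set on surface protein, which these libraries do not measure. In bulk cells, fewer cells of a type and less RNA per cell cannot be told apart, and the part of a shift in cell type in the results that follow was not tested.

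The largest rises were in genes with few or no reads in WT GMPs. Pcdh11x, an X-linked protocadherin of neurons (chromosome X, 120290259–120910619, plus strand), was at 23.4 and 31.6 in WT and 32014 and 40788 in Daxx-KO (log2 fold change 10.32, SE 0.16, adjusted p = 2.78e-09). Sgcz, a muscle sarcoglycan (chromosome 8, 37522298–38661508, minus strand), was at 14.3 and 38.0 in WT and 5513 and 5709.9 in Daxx-KO (7.84, SE 0.34). Pde11a, a phosphodiesterase of cyclic nucleotides (chromosome 2, 75989141–76338774, minus strand), was at 11.7 and 15.4 in WT and 2062 and 2499.7 in Daxx-KO (7.30, SE 0.19). All 3 are genes known mainly from other tissues, and in each the Daxx-KO libraries lay over 100-fold above the WT libraries. Strc, which encodes stereocilin of the inner ear, was at 0 and 0.904 in WT and 819 and 759 in Daxx-KO, which is 1 read in all in WT and 2264 in Daxx-KO, a ratio of 1442 at equal depth with a 95% Clopper-Pearson interval of 259 to 56975 that covers counting error only. Ckmt1, a mitochondrial creatine kinase, had no read in WT and was at 101 and 148 in Daxx-KO, at least 37.8-fold higher than a floor of 3 reads per WT library, and Xlr4d-ps, an X-linked pseudogene, was at 215 and 106 and at least 48.5-fold higher. Fbp2, the muscle form of fructose-bisphosphatase, an enzyme of gluconeogenesis, had 3 reads in all in WT and 1187 in Daxx-KO (ratio 252, interval 86.0 to 1224), and C4b, a complement component, had 2 and 604 (ratio 192, interval 53 to 1592).

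Not all large rises were from silence to expression of a gene foreign to blood. Olfm4, a secondary granule protein of a subset of neutrophils, was at 3.90 and 11.7 in WT and 564 and 1409 in Daxx-KO (6.82). Prdm16, a zinc finger protein that maintains stem cells, was at 40.3 and 23.5 in WT and 2338 and 3267 in Daxx-KO (log2 fold change 6.44, SE 0.25, adjusted p = 1.12e-06), and Chil1, a chitinase-like protein made by neutrophils and macrophages, at 10.4 and 19.9 in WT and 898 and 1536 in Daxx-KO (6.25). In each of these genes the lowest Daxx-KO library was over 40-fold above the highest WT library. With 1 library left out the log2 fold changes ran from 6.13 to 7.51 for Olfm4, from 7.17 to 8.52 for Sgcz and from 5.81 to 7.30 for C4b. The plot of the largest changes by library shows, for several falls, Daxx-KO 1 well above Daxx-KO 2.

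**Figure D2:**
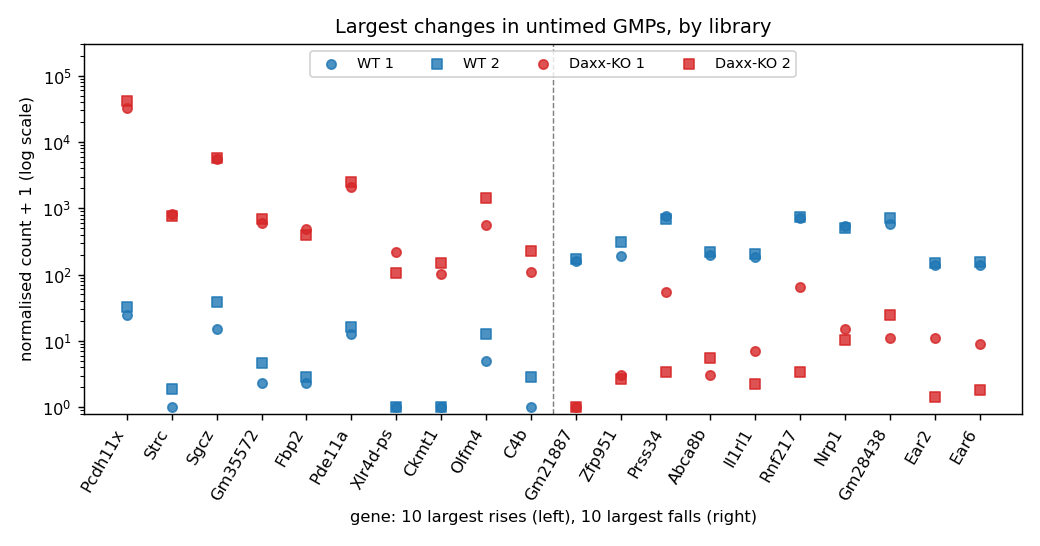
Normalised count + 1 (y axis, log scale) in each of the 4 libraries for the 10 genes with the largest rise and, right of the dashed line, the 10 with the largest fall (x axis) among called genes with a mean of 50 or more and no overlap between genotypes. WT libraries are blue and Daxx-KO libraries red, with circles for replicate 1 and squares for replicate 2, and no red symbol overlaps the blue symbols of its gene.

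Some neighbours moved with the leading genes and others did not. Fbp1, the liver form of fructose-bisphosphatase, lies 6.33 kb from Fbp2 and was at 72.9 and 70.5 in WT and 1192 and 1415 in Daxx-KO (log2 fold change 4.16, SE 0.14, adjusted p = 5.4e-07). Strc and Ckmt1 overlap on opposite strands (chromosome 2, 121363728–121387168 and 121357714–121363737; GRCm38), and since the use of strand in counting is not given in the sources used here, reads in the overlap cannot be told apart. Xlr4e-ps, 211 kb from Xlr4d-ps, was at 0 and 0 in WT and 83.1 and 55.5 in Daxx-KO, but members of this family are near-identical copies whose reads may have been split. By contrast, the nearest tested genes on each side of Sgcz (Lonrf1 and Tusc3), Pde11a (Ttc30a1 and Rbm45) and C4b (Atf6b and Stk19) were not called, with log2 fold changes of 0.03 to 0.33. The promoter of Fbp2 (250 bases before to 50 bases after the RefSeq start; GRCm38.p6, chr13:62858351-62858650, minus strand), shown because this gene had 3 reads in all in WT, reads as follows, with no part marked:
Fbp2 promoter: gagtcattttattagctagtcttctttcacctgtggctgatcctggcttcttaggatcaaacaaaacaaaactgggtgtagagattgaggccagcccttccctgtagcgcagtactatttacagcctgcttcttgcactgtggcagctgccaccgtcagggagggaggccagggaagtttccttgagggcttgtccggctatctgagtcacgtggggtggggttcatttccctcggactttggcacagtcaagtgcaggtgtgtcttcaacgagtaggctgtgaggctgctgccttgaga

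The same leading genes were high in untimed Daxx-KO KLS cells, the c-Kit+ Sca-1+ lineage-negative cells upstream of GMPs, by values from a separately normalised table with other libraries. The log2 fold changes there were 6.70 for Pcdh11x, 8.69 for Strc, 7.58 for Sgcz, 8.69 for Fbp2 and 5.99 for Pde11a, all called. In GMPs at 3 w.p.i. Fbp2, Xlr4d-ps and Ckmt1 of the 10 largest rises were under the minimum level and not tested, 2 of the other 7, Strc (5.92, adjusted p = 0.0113) and Gm35572 (5.74, adjusted p = 0.0135), were called, and Sgcz was at -0.54 and Pde11a at 1.51. Chil1 was a rise of GMPs that KLS cells did not show as a call, at 0.09 (adjusted p = 0.944). Differences between these tables were not tested.

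The largest falls were those of Gm21887 and the zinc finger gene Zfp951. Gm21887 was at 159 and 168 in WT and had no read in Daxx-KO. Zfp951 was at 190 and 305 in WT and 2.03 and 1.63 in Daxx-KO (log2 fold change -6.42). Membrane and signalling genes were among the next. Nrp1 (neuropilin 1), a receptor of semaphorins and VEGF (chromosome 8, 128358604–128503363, plus strand), was at 533 and 511 in WT and 14.2 and 9.38 in Daxx-KO (log2 fold change -5.38, SE 0.27, adjusted p = 4.67e-06). Mtss1, a protein that shapes the cell membrane through actin, was at 1322 and 1203 in WT and 73.0 and 29.8 in Daxx-KO (-4.72). Abca8b, a lipid transporter, was at 195 and 216 in WT and 2.03 and 4.49 in Daxx-KO (-5.66). Nrp1, Mtss1 and Abca8b had little spread within a genotype compared with the gap. Abca9, 105 kb from Abca8b and of the same family, was at 124 and 164 in WT and 26.4 and 4.08 in Daxx-KO (-3.61). Plcb1, a phospholipase C that acts below G proteins, was at 1707 and 1758 in WT and 152 and 20.4 in Daxx-KO (-4.92), and Slc24a3, an exchanger of sodium, calcium and potassium, at 991 and 1215 in WT and 99.3 and 21.2 in Daxx-KO (-4.54). Rnf217, a ubiquitin ligase, was at 699.9 and 736 in WT and 62.9 and 2.45 in Daxx-KO, and its fold change of -5.60 was -3.49 without Daxx-KO replicate 2. Daxx-KO 1 held more of the last 3 transcripts than Daxx-KO 2, and without Daxx-KO replicate 2 the fold change was -3.50 for Plcb1, -3.45 for Slc24a3, -4.09 for Mtss1 and -2.39 for Abca9, whose call was lost without WT replicate 2 (adjusted p = 0.0539). All of these but Abca9 were lower and called in untimed KLS cells too, from -7.74 for Rnf217 to -2.53 for Abca8b. At 3 w.p.i. Zfp951 was lower and called (-5.96, adjusted p = 0.0189 by limma), and none of the others was called.

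The basophil, mast cell and eosinophil branch supplied several of the largest falls. Of 23 listed genes of this branch 19 were tested and 18 were lower, 0 higher, with a median log2 fold change of -3.31, while 33.0% of all tested genes were called and their median was -0.01. Prss34, a basophil protease, was at 758 and 695 in WT and 52.7 and 2.45 in Daxx-KO (-5.74), and the basophil protease Mcpt8 at 632 and 632 in WT and 103 and 77.5 in Daxx-KO (-2.81). Cpa3, the carboxypeptidase of mast cell granules, was at 961 and 1002 in WT and 62.9 and 17.1 in Daxx-KO (log2 fold change -4.85, SE 0.46, adjusted p = 8.33e-05). Prg2, the major basic protein of eosinophils, was at 2312 and 1916 in WT and 324 and 129 in Daxx-KO (-3.35, adjusted p = 0.000112). Epx, eosinophil peroxidase, fell least of the called members, from 1376 and 1404 in WT to 831 and 533 in Daxx-KO (-1.06). Fcer1a, a subunit of the IgE receptor, was at 251 and 213 in WT and 28.4 and 1.22 in Daxx-KO (-4.85), and Il1rl1, the receptor of IL-33 on mast cells and basophils, at 186 and 204 in WT and 6.08 and 1.22 in Daxx-KO (-5.63). Ear2 and Ear6, eosinophil ribonucleases of a family of near-identical genes, were at 139 and 147 in WT and 10.1 and 0.408 in Daxx-KO for the first and at 139 and 154 in WT and 8.11 and 0.816 in Daxx-KO for the second. Daxx-KO 1 kept more of these transcripts than Daxx-KO 2 in Prss34, Fcer1a, Ear2 and Ear6, and without Daxx-KO replicate 2 the fold change of Prss34 was -3.76 and that of Fcer1a -2.98. In the same setting it was -4.79 for Il1rl1, -3.94 for Cpa3, -2.69 for Prg2, -3.69 for Ear2 and -4.01 for Ear6. The summed normalised counts of the list were 9222 and 8994 in WT and 1967 and 1150.3 in Daxx-KO. In every alternative that left out 1 library 15 to 18 members were lower. In KLS cells the tested members had a median of 0.49, and Mcpt8 was higher in Daxx-KO there (3.46, adjusted p = 0.000531), while in GMPs at 3 w.p.i. the median was -0.47 with no member called.

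Genes of later neutrophil maturation were more often higher than lower. Of 38 listed, 29 were tested, 16 were higher and 7 lower, and the median log2 fold change was 1.29. Their summed normalised count was 13094 and 15077 in WT and 59748 and 84171 in Daxx-KO. Chil3, a chitinase-like protein of maturing neutrophils, was at 181 and 274 in WT and 5288 and 7150.3 in Daxx-KO (log2 fold change 4.78, SE 0.20, adjusted p = 1.56e-06). Padi4, the enzyme that citrullinates histones in neutrophils, was at 103 and 127 in WT and 1148 and 1389 in Daxx-KO (3.46, adjusted p = 2.51e-06). Lyz2 (lysozyme) was at 866 and 923 in WT and 3785 and 6297 in Daxx-KO (2.45). Ngp, a secondary granule protein, was at 255 and 1022 in WT and 2362 and 4295 in Daxx-KO, and its fold change of 2.64 became 1.64 without WT replicate 1. S100a8 and S100a9, which form calprotectin and were chosen after their values were seen, rose too, S100a8 from 2467 and 2368 to 14320.3 and 21805 and S100a9 from 1642 and 2139.7 to 17134 and 22474 (2.87 and 3.39). Other members differed from these. Ltf (lactoferrin), a defining secondary granule gene, was at 48.1 and 404 in WT and 144 and 413 in Daxx-KO, with overlap (0.80, adjusted p = 0.506). Camp (cathelicidin) was lower, at 116 and 171 in WT and 68.9 and 91.4 in Daxx-KO (-0.82), a call lost without either WT library and without Daxx-KO replicate 1. Trem3 and Slpi, a receptor and a protease inhibitor of myeloid cells, were lower (-2.31 and -1.48). Without WT replicate 2 the number of lower members was 3.

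Primary granule genes differed by less in the median. Of 17 tested, 10 were higher and 5 lower, with a median of 0.43. Prss57, a serine protease of azurophil granules, was at 574 and 524 in WT and 1107 and 1129 in Daxx-KO (1.03) and Hp (haptoglobin) at 1033 and 860.2 in WT and 1553 and 2078 in Daxx-KO (0.93). Cst7 (cystatin F), an inhibitor of granule proteases, was the exception in size, at 964 and 987 in WT and 89.2 and 8.57 in Daxx-KO (log2 fold change -5.05, SE 0.78, adjusted p = 0.00123), and Ctsc, the protease that activates elastase and its relatives, was at 588 and 605 in WT and 243 and 348 in Daxx-KO (-1.03). Without Daxx-KO replicate 2 the fold change of Cst7 was -3.44 and without Daxx-KO replicate 1 -6.67. The other lower members were Mpo, Lgals1 (-1.16) and Nkg7 (-0.78). Gsta4, a glutathione transferase, rose most (2.55; chosen after its value was seen), a call lost without WT replicate 1 (1.81, adjusted p = 0.132). In KLS cells the median of these genes was 2.57, and at 3 w.p.i. in GMPs it was -0.30.

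Monocyte and dendritic cell genes moved the other way from neutrophil genes. Of 25 tested, 14 were lower and 6 higher, with a median of -0.79. Irf8, the transcription factor that directs GMPs to monocytes, was at 1350.3 and 1646 in WT and 292 and 177 in Daxx-KO (log2 fold change -2.71, SE 0.21, adjusted p = 3.44e-05). Csf1r, the receptor of the monocyte growth factor M-CSF, was at 809 and 997 in WT and 139.9 and 81.2 in Daxx-KO (-3.06). Klf4, a monocyte transcription factor, was at 179.5 and 223 in WT and 32.4 and 23.3 in Daxx-KO (-2.82). Each Daxx-KO library lay below each WT library by over 4-fold in these 3 genes. Ctss, a lysosomal protease of antigen processing, and Fn1 (fibronectin) fell as well (-3.87, or -3.28 without Daxx-KO replicate 2, and -4.07). The members that rose included macrophage genes: Mrc1, the mannose receptor (27.3 and 54.2 in WT and 154 and 301 in Daxx-KO; 2.45), Cd68 (1.53) and Adgre1, which encodes F4/80 (1.31). Of the MHC class II genes or their partners 5 of 8 tested were lower and 0 higher (median -1.88), among them Cd74, the invariant chain, at 62.4 and 100.3 in WT and 36.5 and 6.53 in Daxx-KO, and H2-DMa, which loads peptides, at 165 and 189 in WT and 40.6 and 42.0 in Daxx-KO (-2.07). Without either WT library, 2 of them stayed called, and Cd74 was not (adjusted p = 0.0899 and 0.218), and its fold change of -2.25 was -1.10 without Daxx-KO replicate 2. MHC class I genes went up instead: 7 of 12 tested were higher and 0 lower (median 0.53), with H2-Q6 at 204 and 255 in WT and 947 and 939 in Daxx-KO and H2-Q7 at 107 and 153 in WT and 559.6 and 519.7 in Daxx-KO, though these are close paralogues between which reads may have been split.

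The transcription factors of the myeloid lineage were more often higher than lower. Of 34 tested 16 rose and 7 fell, together 67.6% beside 33.0% of all genes. Egr1 and Klf4 are also on the list of immediate early genes, so the 2 lists are not independent. Gfi1, a repressor that favours neutrophils over monocytes, was at 634 and 595 in WT and 1504 and 1327 in Daxx-KO (log2 fold change 1.20, SE 0.10, adjusted p = 5.98e-05), and Junb, a subunit of AP-1, at 169 and 252 in WT and 641 and 544 in Daxx-KO (1.51). Tal1, a factor of the erythroid and megakaryocyte lines, was at 228 and 248 in WT and 46.6 and 28.6 in Daxx-KO (-2.67). Gfi1 and Irf8 therefore moved in opposite directions. Of 17 tested textbook targets of Pu.1, 11 were higher and 4 lower (median 0.76), and the 4 that fell included Csf1r, Ctss and Flt3. Flt3, a receptor of lymphoid and dendritic progenitors, was at 133 and 153 in WT and 56.8 and 6.93 in Daxx-KO, and its fall was not called without either WT library (adjusted p = 0.0969 and 0.13) and went from -2.74 to -1.31 without Daxx-KO replicate 2. Without either WT library, 2 of the 4 stayed lower.

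**Figure D3:**
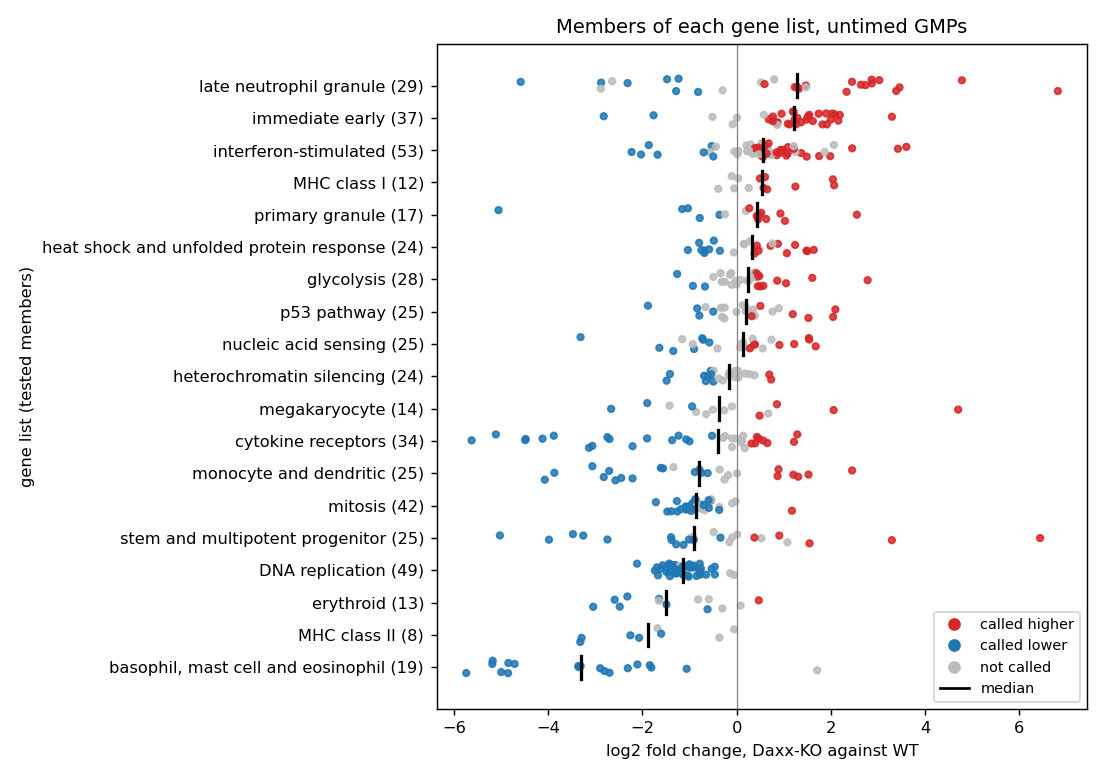
Log2 fold change of Daxx-KO against WT (x axis) for each tested member of 19 gene lists (y axis, number of tested members in brackets), with members called higher in red, lower in blue, not called in grey, and a black bar at the median of the list. The DNA replication members lie close together below 0 (0 higher, 46 lower of 49), while the late neutrophil granule members spread from below -4 to above 6.

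Receptors for growth factors and cytokines were divided. Of 34 tested, 8 were higher and 17 lower (median -0.40). Csf3r, the receptor of the neutrophil growth factor G-CSF, was at 1297 and 1389.7 in WT and 3224 and 3335 in Daxx-KO (log2 fold change 1.29, SE 0.09, adjusted p = 1.7e-05), and Csf2ra, the private chain of the GM-CSF receptor, at 441 and 416 in WT and 945 and 1052 in Daxx-KO (1.22). The beta chains went down: Csf2rb2, the IL-3 specific beta chain, was at 209 and 199 in WT and 14.2 and 4.49 in Daxx-KO (-4.49), and Csf2rb, the common beta chain, chosen after its value was seen, at 1172 and 1228 in WT and 132 and 48.9 in Daxx-KO (-3.88). These are near-identical paralogues, but both fell. Il17ra, a receptor of the neutrophil-recruiting cytokine IL-17, was at 816 and 926 in WT and 83.1 and 17.1 in Daxx-KO (log2 fold change -4.48, SE 0.55, adjusted p = 0.000337). Il6st, the signalling chain shared by IL-6 and its relatives and also chosen after its value was seen, was at 1154 and 1235 in WT and 129.8 and 35.1 in Daxx-KO (-4.12). In Csf2rb2, Csf2rb, Il17ra and Il6st both Daxx-KO libraries lay below both WT libraries, and Daxx-KO 2 below Daxx-KO 1, and without Daxx-KO replicate 2 the fold changes were -3.75, -3.18, -3.37 and -3.19 in turn. Without either WT library, 5 members were higher.

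Genes of stem and multipotent cells were more often lower, with 13 lower and 5 higher of 25 tested (median -0.91). Mecom, a zinc finger factor of stem cells and a relative of Prdm16, was at 395 and 272 in WT and 8.11 and 10.2 in Daxx-KO (log2 fold change -5.03, SE 0.32, adjusted p = 1.44e-05). Prdm16 and Mecom, which encode related histone methyltransferases, thus changed in opposite directions by over 16-fold each. Hlf, a stem cell marker, was at 294 and 235 in WT and 71.0 and 162 in Daxx-KO (-1.28), a fall not called without either WT library, and -0.69 without Daxx-KO replicate 1. Without either WT library, 5 members stayed lower, and 3 stayed higher without WT replicate 2 or without Daxx-KO replicate 2. Of 13 tested erythroid genes 7 were lower and 1 higher (median -1.49), but only 2 stayed lower without WT replicate 1 and 1 without WT replicate 2. Gata1, the main erythroid factor, was at 85.9 and 70.5 in WT and 36.5 and 15.9 in Daxx-KO, a fall not called without either WT library (adjusted p = 0.137 and 0.0905), and the haemoglobin gene Hba-a1 at 1.30 and 2.71 in WT and 2.03 and 1.63 in Daxx-KO, below the minimum level. Of 14 megakaryocyte genes 4 were higher and 3 lower. Itgb3, an integrin of platelets, was at 225 and 232 in WT and 38.5 and 32.2 in Daxx-KO (-2.66). Thbs1 (thrombospondin) was at 14.3 and 22.6 in WT and 116 and 2095 in Daxx-KO, so that Daxx-KO 2 alone gave most of its rise, and without it the fold change was 2.62 and not 4.70, and the call was lost without WT replicate 1 (adjusted p = 0.06). Without either WT library, 1 megakaryocyte gene stayed lower, and without WT replicate 1, 2 stayed higher. Of the T and NK cell genes tested 1 was higher and 2 lower (0 and 1 without either WT library), of the stromal genes 0 and 3, and of the B lineage genes 3 and 0. Markers of B, T and stromal cells were mostly at low levels, and 8 of 30 B lineage, 6 of 31 T and NK cell and 4 of 17 stromal or endothelial genes were tested. The B lineage calls were 37.5% of the tested members, beside 33.0% of all genes. Bank1, a B cell adaptor, rose from 45.5 and 30.7 to 377 and 466 (3.45), while Cd79a and Pax5 stayed under the minimum level in the table.

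DNA replication genes fell as a block. All 49 listed were tested, 46 were lower and 0 higher, and the median was -1.14, with the middle of the list between -1.36 and -0.89. Dscc1, which acts in sister chromatid cohesion at replication, was at 243 and 223 in WT and 54.7 and 51.4 in Daxx-KO (log2 fold change -2.11, SE 0.21, adjusted p = 0.000101), and Gins1, a subunit of the replicative helicase, at 360.3 and 353 in WT and 132 and 86.1 in Daxx-KO (-1.73). In both the Daxx-KO libraries held less than 40% of the WT level. Uhrf1, which guides DNA methylation to newly made DNA, was at 1492 and 1592 in WT and 620.4 and 487 in Daxx-KO (-1.49), and Hells, a remodeller of the same pathway, at 2308 and 2159.6 in WT and 910.3 and 768 in Daxx-KO (-1.42). The count of lower members was 38 to 47 with 1 library left out, where the genotype left with 1 library takes its spread from the other. Replication-dependent histone genes, a group added after the other lists, also fell: 37 of 46 tested were lower and 0 higher, with a median of -1.30. Mitosis genes were lower to a smaller degree, 30 of 42 with 1 higher and a median of -0.86. Ccna2 (cyclin A2) was at 364 and 400.3 in WT and 75 and 178 in Daxx-KO (-1.72), Birc5 (survivin) at 156 and 192 in WT and 46.6 and 81.6 in Daxx-KO (-1.47) and Ttk, a kinase of the spindle checkpoint, at 394 and 333 in WT and 142 and 134 in Daxx-KO (log2 fold change -1.39, SE 0.16, adjusted p = 0.000232). The libraries did not overlap in these 3 genes, yet 18 members stayed lower without WT replicate 1 and 15 without WT replicate 2, and Ccna2 and Birc5 were not called without WT replicate 2 (adjusted p = 0.0503 and 0.0716). Cks2, a small partner of cyclin-dependent kinases, was the 1 member that rose, at 379.9 and 445 in WT and 841 and 1027 in Daxx-KO (1.17). Daxx-KO 2 was above Daxx-KO 1 for Ccna2 and Birc5, and the fold change of Ccna2 was -1.10 without Daxx-KO replicate 1. The replication median was -0.18 in KLS cells and -0.03 in GMPs at 3 w.p.i.

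Among inhibitors of the cell cycle, Cdkn1c (p57), an imprinted gene of quiescent stem cells, was at 2.60 and 1.81 in WT and 97.3 and 141 in Daxx-KO (log2 fold change 5.22, SE 0.51, adjusted p = 9.82e-05), while Cdkn1b (p27) was lower, at 282 and 253 in WT and 176 and 162 in Daxx-KO (-0.66), a call not kept without either WT library. Cdkn1c was the only rise among 6 inhibitors tested, of which 2 fell, and without either WT library, 0 stayed lower. Of 25 tested p53 pathway genes 6 were higher and 4 lower, together 40.0% beside 33.0% of all genes, and without either WT library none stayed lower. Trp53inp1 and Pmaip1 (Noxa), both inducers of cell death, rose from 137 and 108 to 448 and 611 and from 53.3 and 52.4 to 148 and 332 (2.10 and 2.05). Without WT replicate 2, 3 stayed higher.

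The promoters of the replication and mitosis genes, which E2F and the DREAM complex control through the cell cycle, were searched for the known elements of these factors. RefSeq promoter windows (250 bases before to 50 bases after the start; GRCm38.p6) were matched by symbol for 9227 of the tested genes, and letters were searched on both strands. The E2F letters TTTNGCGC were in 11 of 37 matched replication genes (29.7%), against 2.97% of all tested genes, 5.34% of genes lower in Daxx-KO, 1.55% of genes higher, and 1.38% of all windows, and in 1 of 34 matched mitosis genes (2.94%). The CHR letters TTTGAA were in 25 of 34 matched mitosis genes (73.5%), against 14.4% of tested genes and 17.9% of all windows, and in 6 of 37 replication genes (16.2%). These shares are descriptions, and a match is not proof of a bound site. The window of Uhrf1 (chr17:56304063-56304362, plus strand; 1 of 2 windows of the gene) is shown with its E2F match in capitals and that of Ttk (chr9:83834439-83834738, plus strand) with its CHR match, which stands on the other strand, in capitals:
Uhrf1 promoter: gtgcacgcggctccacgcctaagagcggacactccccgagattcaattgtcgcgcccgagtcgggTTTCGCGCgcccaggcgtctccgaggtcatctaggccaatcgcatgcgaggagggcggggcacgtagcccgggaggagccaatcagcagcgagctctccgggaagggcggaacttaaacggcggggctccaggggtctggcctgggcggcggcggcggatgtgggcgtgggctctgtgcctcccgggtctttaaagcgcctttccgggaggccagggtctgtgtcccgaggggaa
Ttk promoter: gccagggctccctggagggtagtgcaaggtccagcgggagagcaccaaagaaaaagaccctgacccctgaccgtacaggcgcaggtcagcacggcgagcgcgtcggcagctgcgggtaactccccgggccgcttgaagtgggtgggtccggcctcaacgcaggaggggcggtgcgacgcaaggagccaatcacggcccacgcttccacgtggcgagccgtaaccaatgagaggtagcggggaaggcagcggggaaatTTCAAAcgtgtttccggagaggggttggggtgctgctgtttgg

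Immediate early genes, which are switched on within minutes by growth factors and stress, rose in both Daxx-KO libraries: 29 of 37 tested were higher and 2 lower, with a median of 1.23 and summed normalised counts of 9693 and 10951 in WT and 20946 and 31050.2 in Daxx-KO. Fosb, a subunit of AP-1, was at 666 and 933 in WT and 3017 and 4293 in Daxx-KO (log2 fold change 2.19, SE 0.19, adjusted p = 5.35e-05) and Egr1, a zinc finger factor, at 119.7 and 148 in WT and 961 and 1801 in Daxx-KO (3.29). Klf6 was at 503 and 469.9 in WT and 1304 and 3624 in Daxx-KO, and its fold change of 2.16 was 1.42 without Daxx-KO replicate 2. Daxx-KO 2 was higher than Daxx-KO 1 in all 3. Dusp6, a phosphatase that reports ERK signalling, was one of the 2 lower members, at 193 and 228 in WT and 79.1 and 46.9 in Daxx-KO (-1.76). Their median was 0.40 in KLS cells and -0.27 in GMPs at 3 w.p.i.

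Interferon-stimulated genes were higher on balance, by smaller steps. Of 71 listed, 53 were tested, 24 were higher and 7 lower, and the median was 0.56, while without WT replicate 1, 12 were higher and 3 lower and without WT replicate 2, 3 were lower. The largest rises were in the 2′-5′ oligoadenylate synthetases, sensors of double-stranded RNA that activate RNase L. Oas2 was at 14.3 and 45.2 in WT and 333 and 312 in Daxx-KO (log2 fold change 3.60, SE 0.44, adjusted p = 0.000324), Oas1g at 15.6 and 8.13 in WT and 129.8 and 133 in Daxx-KO (3.42) and Oas3 at 11.7 and 29.8 in WT and 116 and 99.5 in Daxx-KO (2.45). With 1 library left out the fold change was 2.81 to 4.40 for Oas2 and 1.81 to 3.09 for Oas3. All 3 lie in 1 cluster on chromosome 5, and Oas1 copies are close in sequence, so their reads may have been split. Other members went down, among them Mndal and Ifi203, DNA-binding proteins of the Ifi200 cluster, from 398 and 427 to 170.3 and 74.2 and from 345 and 444 to 158 and 93.4 (-1.86, or -1.27 without Daxx-KO replicate 2, and -1.68). Ifit1, Isg15, Usp18 and Cxcl10, which many cells make in response to interferon, were under the minimum level. The ISRE, searched as GAAA, 2 bases of any kind and GAAA, the element through which type I interferon induces genes, was in 21 of 42 matched members (50%), against 3.93% of tested genes, 4.47% of genes higher in Daxx-KO, 3.71% of genes lower and 3.44% of all windows. The windows of Oas1g (chr5:120887564-120887863, minus strand), with 2 overlapping matches, and of Oas3 (chr5:120777610-120777909, minus strand), with 1, are shown with the matched letters in capitals:
Oas1g promoter: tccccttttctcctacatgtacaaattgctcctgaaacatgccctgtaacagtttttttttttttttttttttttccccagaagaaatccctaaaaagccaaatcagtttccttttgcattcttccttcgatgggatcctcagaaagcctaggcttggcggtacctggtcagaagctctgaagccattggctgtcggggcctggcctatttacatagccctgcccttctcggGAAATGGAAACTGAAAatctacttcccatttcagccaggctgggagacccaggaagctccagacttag
Oas3 promoter: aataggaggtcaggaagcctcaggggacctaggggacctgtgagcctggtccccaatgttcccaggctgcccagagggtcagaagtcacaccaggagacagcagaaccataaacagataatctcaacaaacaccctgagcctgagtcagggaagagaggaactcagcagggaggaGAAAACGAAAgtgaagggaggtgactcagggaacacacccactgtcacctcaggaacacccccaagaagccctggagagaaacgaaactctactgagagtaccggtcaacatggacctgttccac

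Genes that sense nucleic acids were split, with 8 higher and 7 lower of 25 tested (median 0.14). Higher members included sensors of RNA. Dhx58 (LGP2), a cofactor of the RIG-I family, was at 49.4 and 31.6 in WT and 138 and 98.3 in Daxx-KO (1.53), and Ikbke, the kinase downstream, at 568 and 511 in WT and 1513 and 1630.4 in Daxx-KO (log2 fold change 1.54, SE 0.10, adjusted p = 1.69e-05). Lower members included the DNA sensing pair. Mb21d1 (cGAS) was at 282 and 296 in WT and 134 and 95.9 in Daxx-KO (-1.34) and its partner Tmem173 (STING) at 334 and 420.2 in WT and 209 and 191 in Daxx-KO (-0.90). Rnaseh2b, a subunit of an RNase that removes RNA from DNA, was at 571 and 542 in WT and 353 and 317 in Daxx-KO (-0.73). Without WT replicate 1, 5 members were higher, and without WT replicate 2, 3 were higher and 4 lower, and Dhx58 was not called without WT replicate 2 (adjusted p = 0.0585). Of 28 NF-kB and inflammatory genes 7 were higher and 4 lower, together 39.3% beside 33.0% of all genes, so the list was near the general share. Nfkbiz, an NF-kB cofactor of neutrophil genes, was at 216 and 234 in WT and 689 and 1106 in Daxx-KO (1.95). Plaur, the urokinase receptor, was at 129 and 116 in WT and 24.3 and 17.9 in Daxx-KO (-2.49). Fewer members stayed lower when a WT library was left out.

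Of 11 tested genes of H3.3 deposition, the process in which Daxx acts, 2 were higher and 3 lower, together 45.5% beside 33.0% of all genes. The deleted gene Daxx was among the lower ones. Atrx was at 4060.1 and 3899 in WT and 5490.5 and 5749.9 in Daxx-KO (log2 fold change 0.50, SE 0.08, adjusted p = 0.00164), and Cabin1, of the Hira complex, at 1769 and 1750.3 in WT and 2212 and 2071 in Daxx-KO (0.28), a call not kept without Daxx-KO replicate 1 or without either WT library. Dek, an H3.3 chaperone of dividing cells, was at 2658 and 2592 in WT and 1233 and 1036 in Daxx-KO (-1.22), and Asf1b, which hands histones to the replication fork, at 230.3 and 240.4 in WT and 116 and 82.8 in Daxx-KO (-1.26). Whether the falls of Dek and Asf1b go with those of the replication genes was not tested. Of 24 genes of heterochromatin silencing 2 were higher and 8 lower, led by Uhrf1 and Hells, together 41.7% beside the same 33.0%. Atf7ip, which stabilises the H3K9 methyltransferase Setdb1, was at 2469 and 2269 in WT and 3708 and 4176 in Daxx-KO (0.73) and Dnmt3a, a DNA methyltransferase, at 870.3 and 818 in WT and 1285 and 1449 in Daxx-KO (0.69).

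Genes known to differ between the 6N and 6J substrains were checked because the floxed and Cre lines come from one each: 3 of 4 tested were higher and 0 lower, with Nlrp12, an inhibitory receptor of myeloid cells, up by 3.08 and Cyfip2, whose call was lost without WT replicate 1, by 0.40. Substrain of origin and genotype cannot be told apart for them here. Of 8 tested imprinted genes Cdkn1c rose and Airn, a long non-coding RNA, was lower (-2.48; chosen after its value was seen), a call not kept without either WT library.

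In metabolism some paralogues differed in direction. Hk3, the hexokinase of granulocytes, was at 2314 and 2042 in WT and 4483 and 4521 in Daxx-KO (1.05) and Hk2 at 1121 and 1190.0 in WT and 543 and 426 in Daxx-KO (-1.26). Ldhb was at 91.1 and 113 in WT and 614 and 804 in Daxx-KO (log2 fold change 2.78, SE 0.18, adjusted p = 1.46e-05) and Ldha at 1777 and 2072 in WT and 1299.6 and 1114 in Daxx-KO (-0.67). Within each pair of isozymes 1 rose and the other fell. Of 28 tested glycolysis genes 11 were higher and 3 lower, and without WT replicate 1, 5 stayed higher and without WT replicate 2, 7. Of 10 gluconeogenesis genes 2 were higher, Fbp1 and Fbp2, and 5 lower, for example Got1 and Got2, aminotransferases of the malate-aspartate shuttle (-1.15 and -0.99), and without WT replicate 1, 2 and without WT replicate 2, 3 stayed lower, Got1 being lost without WT replicate 1 (adjusted p = 0.0593). In cholesterol synthesis 2 of 23 were higher and 6 lower, together 34.8% beside 33.0% of all genes. Sqle (squalene epoxidase) was at 151 and 169.9 in WT and 44.6 and 51.4 in Daxx-KO (log2 fold change -1.72, SE 0.24, adjusted p = 0.000648). Without WT replicate 2, 3 stayed lower, and the 2 rises were reduced to 0 or 1 by leaving out any 1 library. Of 24 heat shock and unfolded protein genes 10 were higher and 8 lower: the cytosolic chaperones Hspa1b (496 and 664 in WT and 1770.0 and 1497 in Daxx-KO; 1.5) and Dnajb1 (1.64) rose, and Hsp90b1 (2394 and 2474 in WT and 1389 and 1508 in Daxx-KO; -0.75) and Pdia6 (-0.80), chaperones of the endoplasmic reticulum, fell.

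The share of called genes was higher in genes that span more of the genome. Over 5 groups of 2529 or 2530 genes ordered by span (medians 2.98, 11.8, 23.7, 46.7 and 132 kb) 19.6%, 28.5%, 33.7%, 38.2% and 45.3% were called. Most of this was in rises, from 7.27% in the shortest group to 26.3% in the longest, while falls went from 12.3% to 18.9%. Of 282 tested lincRNAs 53 were higher and 16 lower, and of 11099 protein-coding genes 1966 were higher and 1984 lower. Malat1, an abundant nuclear RNA, was at 14949 and 14986 in WT and 36959 and 41867 in Daxx-KO (log2 fold change 1.39, SE 0.09, adjusted p = 1.64e-05).

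Set beside the other tables, the changes of untimed GMPs shared their direction more often with untimed KLS cells than with GMPs at 3 w.p.i., as a description without a test. Of 4069 genes called in untimed GMPs and tested in KLS cells, 2615 (64.3%) had the same sign there, where 3118 of 13508 genes (23.1%) were called. Of 4115 tested at 3 w.p.i., 1679 (40.8%) had the same sign, where 13 of 13714 (0.0948%) were called, and 433 (3.16%) had an unadjusted p under 0.05. Genes higher in untimed GMPs had the same sign at 3 w.p.i. in 31.5% of cases and lower genes in 49.9%. No library is shared between these tables, but each was normalised separately. For GMPs at 3 w.p.i. the paper describes another library kit than the one of the untimed libraries. Kit and time point therefore cannot be told apart in this comparison. Genotypes at 3 w.p.i. were taken from animal numbers on labels of KLS samples. For 1 WT column the control ending that the repeat table of KLS cells gives its number was used. Between GMPs and KLS cells the medians of the 19 lists plotted differed most for basophil, monocyte and primary granule genes, whose medians in KLS cells were 0.49, 0.88 and 2.57.

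**Figure D4:**
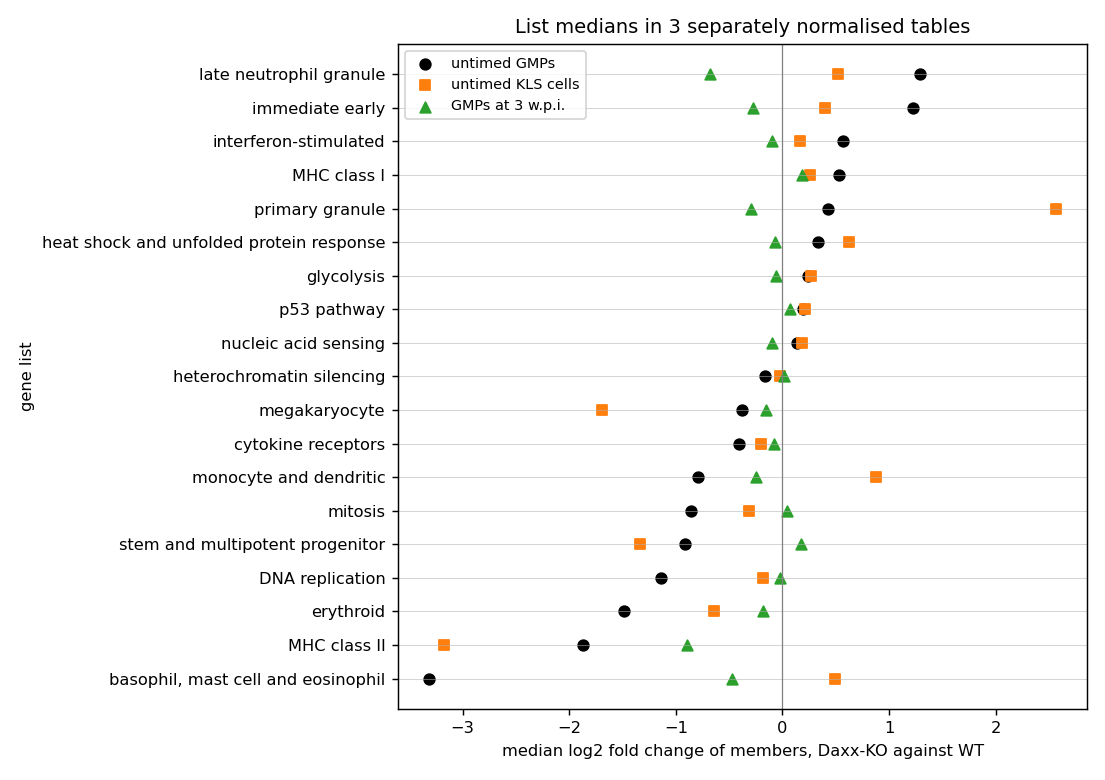
Median log2 fold change of Daxx-KO against WT (x axis) of the tested members of 19 gene lists (y axis) in untimed GMPs (black circles), untimed KLS cells (orange squares) and GMPs at 3 w.p.i. (green triangles), from tables normalised separately, with no error drawn. The 3 w.p.i. medians lie between -1 and 0.5 in every list shown, and the basophil list is at -3.31, 0.49 and -0.47.

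Retroelements and other repeats were read from a second table of the same 4 libraries, whose column headings cannot be taken at face value. The value of 1 read in that table, as headed, was 2.10 and 0.398 for WT and 1.29 and 0.901 for Daxx-KO, against 1.30 and 0.904 for WT and 2.03 and 0.408 for Daxx-KO in the gene table. With the genotype pairs exchanged, the ratio of the 2 tables was 0.975 to 1.04 in every library, and as headed it was 0.440 to 2.21. The number of repeat reads per gene read was 0.136 to 1.10 as headed and 0.332 to 0.449 with the pairs exchanged. The satellite signal showed the same. Gm10800, a gene model that holds satellite sequence, was at 4081, 18869.9, 4890.3 and 4736 in the gene table (WT 1, WT 2, Daxx-KO 1, Daxx-KO 2), and the major satellite GSAT_MM was at 4229, 5634, 4049 and 18196 in the repeat table as headed. The single high library was thus WT 2 by the gene table and Daxx-KO 2 by the headings of the repeat table. The untimed KLS tables differed in the same way, and over the 8 GMP and KLS libraries the ratio was 0.940 to 1.04 with the pairs exchanged and 0.165 to 5.85 as headed. The labels give no other heading, and no column was reassigned, so values below are given by heading. An exchange would leave each size and p as it is and turn every direction. The Daxx transcript was lower in the columns that the gene table heads as Daxx-KO (44.6 and 22.8, against 215 and 143 in WT). The headings of the gene table therefore held, and the repeat table matches them only with the pairs exchanged. Read that way, a minus sign below is a higher level in Daxx-KO.

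**Figure D5:**
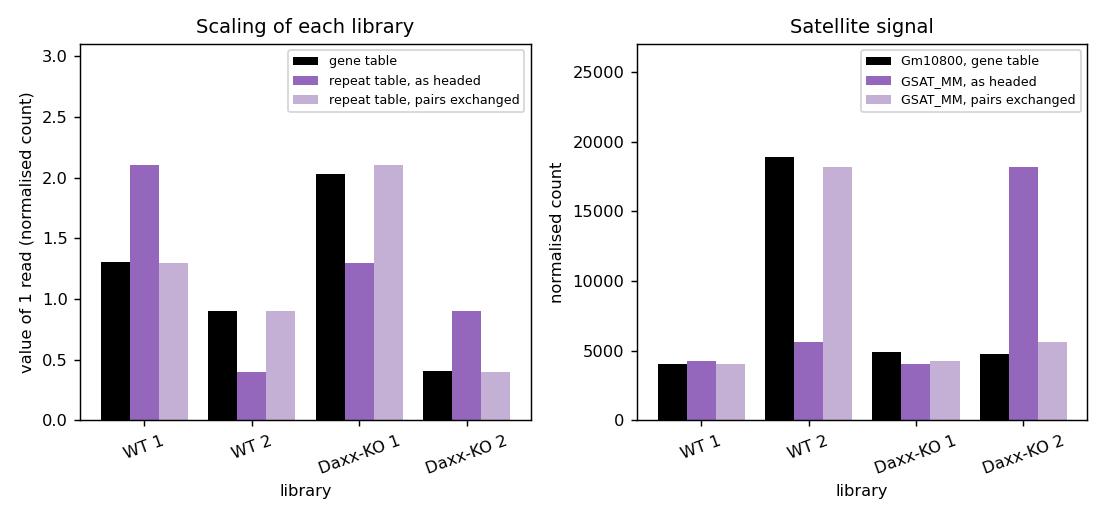
Left, the normalised count that 1 read is worth (y axis) in each library (x axis) in the gene table (black) and in the repeat table as headed (dark purple) or with the genotype pairs exchanged (light purple). Right, the normalised count of satellite signal, from Gm10800 in the gene table and from GSAT_MM in the repeat table, with the same colours, where the bars of the exchanged pairs match the black bars in height, and those as headed do not for any library on the left or for WT 2 and Daxx-KO 2 on the right.

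Of 992 tested repeat subfamilies 142 (14.3%) were called, 139 lower and 3 higher in the columns headed as Daxx-KO, with a median log2 difference of -0.28 over all subfamilies. After TMM rescaling 10 were called, 9 lower and 1 higher, with a median of 0.00. The strongest were VL30 elements, endogenous retroviruses of the ERV1 family. MMVL30-int was at 61046 and 78133 in the columns headed as WT and 2012 and 1941 in those headed as Daxx-KO (log2 difference -5.13), and its LTRs RLTR6C_Mm and RLTR6_Mm differed by -6.82 and -4.16. The internal part of intracisternal A particles, active retroelements of the mouse, was at 18770.2 and 21865 as headed WT and 9741 and 10104 as headed Daxx-KO for IAPEz-int (-1.03), and IAPLTR3-int differed by -3.57. In each the paired columns were alike. The pairs did not overlap, but neither did the genotypes in 67.2% of the tested genes, so this adds no support. By family sums, 2 of 57 families (3.51%) were called, ERV1 (-1.72, adjusted p = 0.000153) and IAP (-1.11, adjusted p = 0.000587).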

How the data were processed

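RNA was sequenced from sorted GMPs, and 4 libraries, 2 per genotype, were analysed. The authors deposited normalised counts per gene and per repeat, a signal scaled between libraries, made per the submitters' processing notes with CASAVA 1.8.4, cutadapt 1.13, STAR 2.5.3 and DESeq2 1.16.1 on mm10, and the counter and its use of strand are not given in the sources used here. Since every value was a whole multiple of 1 step per library (100% within 0.01), whole reads were recovered for depth and for count tests with edgeR 4.0.16 and DESeq2 1.42.0 as alternatives.

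The values were normalised, so limma 3.58.1 with a mean trend was applied to log2(value + 1) of genes with a mean of 10 or more, with Benjamini-Hochberg adjustment over all of them, and fold changes on this scale understate those of low genes. Every adjusted p is from limma. The untimed KLS table and the 3 w.p.i. GMP table were each fitted alone. Alternatives were pseudocounts of 0.5 and 5, no filter, a mean of 50, TMM, thinning to equal depth, the replicate number as a block and each library left out, which leaves 1 library in a genotype, assumed to vary like the other genotype.

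Genes were named by rule: the 10 largest rises and falls with a mean of 50 or more and no overlap, the 5 largest each way among protein-coding genes with a mean of 500 or more, the 10 genes highest in WT, and from each of 35 lists its defining members and the 3 largest changes each way. The members and lists were chosen with earlier results of these data known. Positions are from GENCODE on GRCm38 and promoters from RefSeq. Some named genes are not reported here.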

Additional observations from a re-analysis of the deposited data

Results flagged for a closer look

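Of the named genes reported here, 18 were called in both untimed GMPs and untimed KLS cells with log2 fold changes of opposite sign, every Daxx-KO library lying on one side of the WT libraries in one cell type and on the other side in the other. The difference itself was not tested, since the tables were normalised separately. Of the GMP calls, those of Mpo, Selp, Gbp3 and Nlrp3 were lost without either WT library, those of Kit, Ighm and Cyfip2 without WT replicate 1, and those of Mpo and Selp also without Daxx-KO replicate 2. Lower in Daxx-KO GMPs and higher in Daxx-KO KLS cells were the basophil protease Mcpt8 (-2.81 in GMPs and 3.46 in KLS cells), the IL-3 receptor chain Csf2rb2 (-4.49 in GMPs and 1.07 in KLS cells), the M-CSF receptor Csf1r (-3.06 in GMPs and 2.16 in KLS cells) and myeloperoxidase (Mpo) (-0.36 in GMPs and 4.15 in KLS cells). The same signs were found for the galectin Lgals1 (-1.16 in GMPs and 3.18 in KLS cells), the inflammasome sensor Nlrp3 (-1.33 in GMPs and 2.48 in KLS cells), the Toll-like receptor cofactor Ly86 (-2.57 in GMPs and 1.07 in KLS cells) and the adhesion molecule Selp (-0.95 in GMPs and 1.51 in KLS cells). The same signs were found for Sdf2l1 (-1.03 in GMPs and 1.29 in KLS cells), the guanylate-binding protein Gbp3 (-0.70 in GMPs and 1.49 in KLS cells), Pdia6 (-0.80 in GMPs and 0.81 in KLS cells) and the adhesion molecule Pecam1 (-0.81 in GMPs and 0.71 in KLS cells). They also held for Hsp90b1 (-0.75 in GMPs and 0.64 in KLS cells). Higher in GMPs and lower in KLS cells were the immunoglobulin heavy chain gene Ighm (0.67 in GMPs and -4.22 in KLS cells), the B cell adaptor Bank1 (3.45 in GMPs and -1.27 in KLS cells) and the IL-18 receptor chain Il18rap (0.65 in GMPs and -0.92 in KLS cells), with the stem cell factor receptor Kit (0.40 in GMPs and -1.03 in KLS cells) and Cyfip2 (0.40 in GMPs and -0.39 in KLS cells).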

How the results depend on the processing

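With 1 library left out, the 4209 gene calls ranged from 2162 without WT replicate 2 to 4448 without Daxx-KO replicate 1, with 2433 without WT replicate 1, of which 2392 and, without WT replicate 2, 2124 were among the 4209. DESeq2 called 3390 and edgeR 4391, equal depth 3676 and TMM 4208. Of 173 named genes called, 143 were still called without WT replicate 1, 145 without WT replicate 2 and 162 by DESeq2, and none turned direction under any alternative run. With the replicate number as a block 3722 genes were called, and with the numbers crossed, a pairing added after the data were seen, 4921. Same-numbered libraries did not deviate together (correlation -0.111 over genes), so the numbers were not taken as pairs. Repeat subfamilies fell from 142 calls to 10 after TMM and 99 with the replicate block, and ranged from 47 to 329 with 1 library left out. Repeat families were 3 after TMM, 3 with the block and 2 to 24 with 1 library left out. The shared direction with untimed KLS cells (share of GMP calls with the same sign) was 64.1 to 71.9% with 1 library left out, 74.1% for changes over 2-fold and 63.1% at a mean of 50 or more. The shared direction with GMPs at 3 w.p.i. was 39.1 to 41.7%, 46.0% and 39.0% in turn. The cause of these shifts was not tested. In Daxx-KO 1, the shallowest library, 1 read was worth 2.03 normalised counts.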
